A study of Mus musculus with 16 samples.

Results

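Postnatal maturation of the control sciatic nerve was followed between postnatal day 10 (P10) and 2 months of age in mice, over every gene of the array that carries a symbol. The array reads 22206 transcript clusters, each a set of probes for 1 gene model, of which 19572 have a symbol. Where a symbol had several clusters, the one with the highest mean over all arrays was kept, which left 19505 genes. The values are log2 intensities after the robust multiarray average (RMA), so a difference of 1 is a doubling of signal.

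The comparison takes 8 of the 16 arrays of the study, 4 of control nerves at P10 and 4 of control nerves at 2 months, with 1 nerve sample per array. The labels call these animals *Becn1* wild-type. In the study's methods the controls are mice with 1 or 2 floxed *Becn1* alleles (*Becn1* fl/+ or fl/fl) and no Cre. The other 8 arrays are of *Becn1* fl/fl mice with a Cre that is expressed in Schwann cells (cKO) and leaves *Becn1* intact in the other cells of the nerve, and they enter only where stated. The methods state that animals of both sexes were used and were killed in the morning, the adults by cervical dislocation and the pups by decapitation, so age and the way of killing cannot be told apart. Nothing in the labels says that arrays come from separate litters or days, and the p-values measure the spread between these samples.

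In the first weeks after birth, Schwann cells leave the cell cycle and wrap single axons in myelin, a spiral of membrane rich in cholesterol and galactolipids. The fibroblasts, perineurial cells, vessels and resident macrophages of the nerve grow at the same time, and collagen, laminin and elastic fibres are laid down in it. In the adult nerve most of these cells rest, and the myelin that was made is maintained with slow turnover.

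The arrays of an age were closer to each other than to those of the other age. Over all transcript clusters, Pearson's r ran from 0.976 to 0.989 between the P10 arrays, from 0.982 to 0.990 between the 2-month arrays and from 0.951 to 0.968 across ages. *Sox10*, which defines the Schwann cell lineage, read 9.78, 9.79, 9.38 and 9.60 at P10 and 9.20, 9.02, 8.79 and 8.91 at 2 months. Nerves are dissected from between muscles, and 1 array stood apart. The mean of 28 adult skeletal muscle genes was 10.23 on replicate 4 at P10, against 6.51 to 8.39 on the other P10 arrays and 5.83 to 6.73 at 2 months. The Y-linked gene *Kdm5d* read 7.33, 7.05, 2.83 and 3.03 at P10 and 7.64, 7.96, 3.14 and 3.43 at 2 months, and *Eif2s3y* and *Uty* had the same pattern, so each age holds 2 arrays with high and 2 with low values of these genes.

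Maturation changed a large part of the transcriptome, in both directions and in nearly equal numbers. At a Benjamini-Hochberg adjusted p under 0.05 from limma, 2363 genes were higher at 2 months (12.1% of 19505) and 2459 were lower (12.6%), or 24.7% together. Log2 changes are given as 2 months minus P10 with their standard error (SE). Their median over all genes was -0.015, and 447 of the rises and 442 of the falls were at least 1 on the log2 scale. Without replicate 4 at P10, 86.4% of the rises and 89.3% of the falls were called again. Values of the 4 arrays of one age lay wholly above those of the other for 12.5% of all genes upward and for 13.4% downward.

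**Figure D1:**
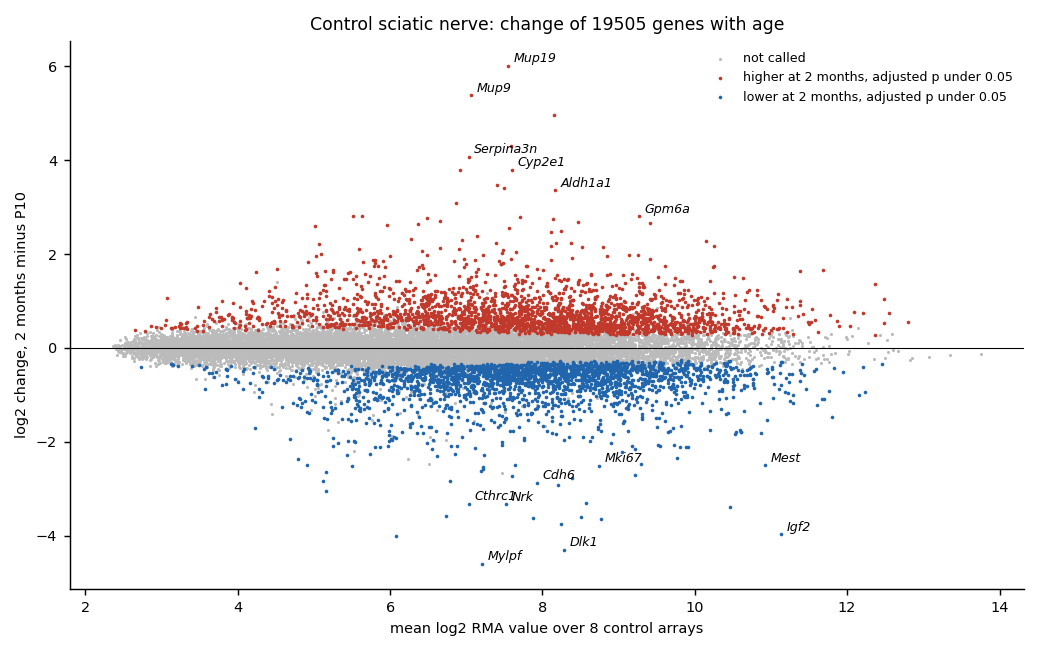
Log2 change from P10 to 2 months (vertical axis) against the mean log2 RMA value over the 8 control arrays (horizontal axis) for 19505 genes. Red points are the 2363 genes called higher, blue points the 2459 called lower, and grey points are not called; the major urinary protein genes Mup19 and Mup9 lie highest and the muscle gene Mylpf lowest.

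Most of the largest rises belonged to secreted carrier proteins, an acute-phase inhibitor, enzymes of detoxification and immune factors. Ranked were the 15 genes with the largest change in each direction among those called with no overlap between ages and called again without replicate 4 at P10. *Mup19*, which encodes a major urinary protein that binds small hydrophobic molecules, read 5.03, 4.84, 4.20 and 4.11 at P10 and 8.40, 10.01, 11.85 and 11.98 at 2 months. Its log2 change was 6.01 (SE 0.60, adjusted p = 1.27e-05), and all adult arrays lay above all P10 arrays although they differed among themselves by more than 3 units. *Mup9* (5.38), *Mup22* (4.95) and *Mup2* (4.29) followed, with their adult arrays in the same order. The mean of 15 adipocyte genes had that order at 2 months too (7.33, 8.06, 8.32 and 8.998). At P10 that mean was 8.71, 8.11, 7.84 and 8.54. Replicates 3 and 4 at 2 months, the highest for *Mup19*, were also low for the Y-linked genes. The part of fat in the rises of the *Mup* genes was not tested. The genes of this family are near-identical copies, so the array cannot assign the signal to single members with certainty. *Serpina3n*, a secreted inhibitor of serine proteases that is induced in acute-phase responses, read 4.91, 5.18, 5.12 and 4.77 at P10 and 9.36, 9.37, 8.96 and 8.60 at 2 months. With a log2 change of 4.08 (SE 0.17, adjusted p = 4.26e-08), its gap between ages was several times the spread within either.

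Enzymes were the next group among the largest rises. *Aldh1a1*, a retinaldehyde dehydrogenase that makes retinoic acid, read 6.54, 6.15, 6.76 and 6.50 at P10 and 10.24, 10.02, 9.71 and 9.40 at 2 months, a log2 change of 3.36 (SE 0.18, adjusted p = 1.26e-07). *Cyp2e1*, a cytochrome P450 that oxidizes small molecules such as ethanol, changed by 3.79 (SE 0.32, adjusted p = 3.42e-06). *Inmt*, which methylates indoleamines, changed by 2.76 (adjusted p = 6.91e-06) and *Etnppl*, which breaks down phosphoethanolamine, by 2.82 (adjusted p = 3.07e-05). For *Etnppl* the adult arrays read 7.62, 7.62, 7.06 and 5.84, so replicate 4 was lower than the rest but still above every P10 array. Immune and matrix genes, *Gpnmb* and the membrane gene *Gpm6a* made up the remainder. *Retnla*, a secreted protein of alternatively activated macrophages rose by 3.48, the B-cell chemokine gene *Cxcl13* by 2.80, the macrophage and pigment-cell glycoprotein gene *Gpnmb* by 3.09 and the carboxypeptidase-like gene *Cpxm2* by 2.79. *Gpm6a*, a membrane glycoprotein of neurons and other cells, read 7.62, 8.05, 7.96 and 7.81 at P10 and 10.81, 10.67, 10.87 and 10.31 at 2 months, a log2 change of 2.80 (SE 0.14, adjusted p = 6.01e-08) with narrow groups. *C7*, a component of the complement membrane attack complex, rose by 3.41 (adjusted p = 0.000911), but its adult arrays spread from 7.08 to 10.82 while those at P10 stayed between 5.58 and 6.03.

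Imprinted genes and muscle genes made up 10 of the 15 largest falls. *Dlk1*, an imprinted inhibitor of differentiation, read 10.41, 10.45, 10.24 and 10.65 at P10 and 5.80, 6.28, 6.39 and 6.08 at 2 months, a log2 change of -4.30 (SE 0.14, adjusted p = 2.01e-09). The imprinted growth factor gene *Igf2* read 12.81, 13.05, 13.11 and 13.49 at P10 and 8.66, 8.70, 9.75 and 9.48 at 2 months and changed by -3.97 (SE 0.23, adjusted p = 2.32e-07). Neither gene had any overlap between ages, and for both the adult level was far below the lowest P10 array. The cluster annotated as *Mir675*, which also carries the accession of a longer host transcript and does not read the mature microRNA, changed by -3.40 (adjusted p = 1.43e-06). *Usp29* and *Zim1*, 2 further imprinted genes, changed by -2.83 and -2.70.

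Other large falls were in genes of matrix, adhesion and signalling. *Cthrc1*, a secreted regulator of collagen matrix, read 9.15, 8.50, 8.51 and 8.64 at P10 and 5.51, 5.45, 5.34 and 5.23 at 2 months, a change of -3.32 (SE 0.15, adjusted p = 5.65e-08). *Cdh6*, a cadherin of the neural crest, read 9.52, 9.34, 9.50 and 9.11 at P10 and 6.77, 6.51, 6.35 and 6.32 at 2 months and changed by -2.88 (SE 0.13, adjusted p = 5.65e-08). *Nrk*, a kinase gene known from embryonic muscle and placenta, changed by -3.33 (adjusted p = 6.01e-08) and *Fbn2*, the fibrillin of the growing microfibril, by -2.58 (adjusted p = 1.43e-06). Arrays of 1 age lay within 1 unit of each other for *Cthrc1*, *Cdh6* and *Nrk*. *Ucp1*, the uncoupling protein of brown fat, read 8.0, 5.82, 4.73 and 8.50 at P10 and 4.55, 3.91, 4.46 and 4.02 at 2 months, so that 2 P10 arrays were high and 1 was close to the adult range. The muscle genes *Mylpf* (-4.60), *Myoz2* (-4.0), *Acta1* (-3.65), *Myl1* (-3.60) and *Myom2* (-2.65) complete the 15 and are described with the muscle list.

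**Figure D2:**
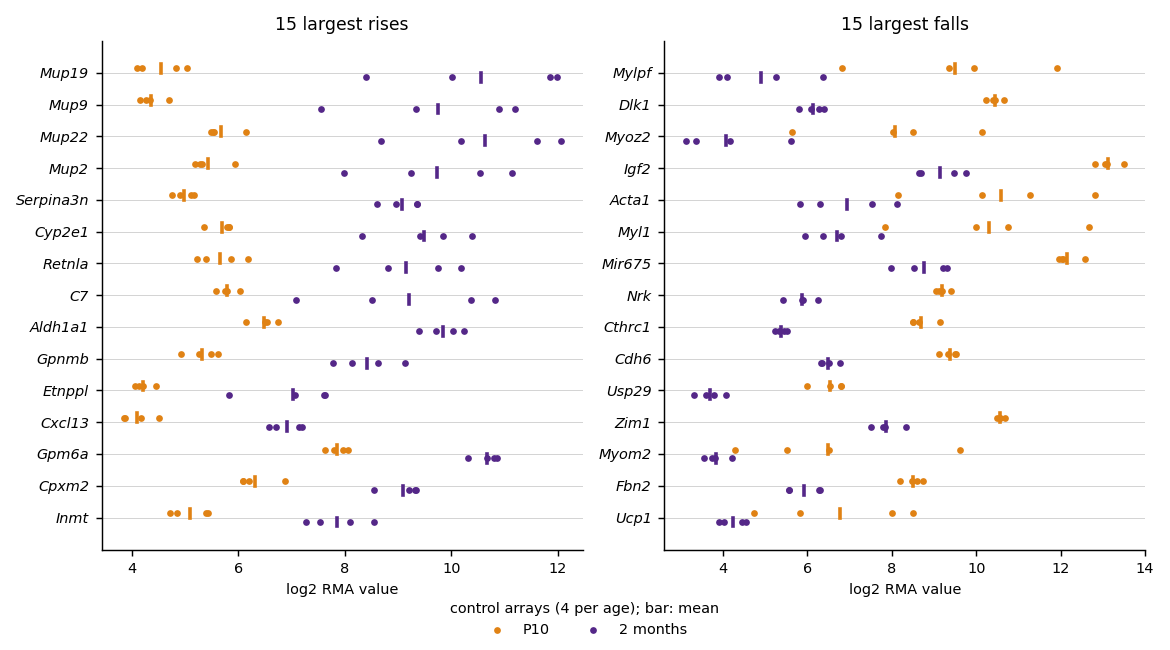
Log2 RMA values (horizontal axis) of the 8 control arrays for the 15 largest rises (left) and the 15 largest falls (right) among genes without overlap between ages. Each point is 1 array, orange at P10 and purple at 2 months, and the short bar is the mean of 4 arrays; the spread is narrow for Cthrc1 or Serpina3n and wide for the Mup genes among adults and the muscle genes at P10.

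Genes of mitosis fell almost as a whole. Of 29 genes of mitosis and cell division that were measured, 27 were lower at 2 months and none higher, against 12.6% of all genes lower, and their median log2 change was -1.39. The 2 that were not called are *Cdca8* (-0.28) and *Anln* (0.37). *Mki67*, the proliferation marker, read 10.15, 9.66, 10.30 and 9.89 at P10 and 7.51, 7.75, 7.79 and 6.87 at 2 months, a change of -2.52 (SE 0.19, adjusted p = 1.79e-06). *Cdk1*, the cyclin-dependent kinase of the G2/M transition, read 6.08, 5.77, 6.39 and 5.62 at P10 and 3.74, 3.86, 3.30 and 3.51 at 2 months and changed by -2.36 (SE 0.19, adjusted p = 2.16e-06). Both were lower on every adult array than on any P10 array. The spindle checkpoint kinase gene *Bub1* changed by -2.27 (adjusted p = 2.91e-06), the cyclin gene *Ccna2* by -2.26 (adjusted p = 4.62e-06) and the kinesin gene *Kif2c* by -1.97 (adjusted p = 5.47e-06).

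The genes that copy DNA fell less. Among 26 replication genes 17 were lower and none higher (1 without replicate 3 of either age), with a median of -0.50. *Rrm2*, a subunit of ribonucleotide reductase, changed by -1.45 (adjusted p = 2.16e-06), and *Uhrf1*, which couples replication to DNA methylation, by -1.32 (adjusted p = 8.54e-05). The helicase subunit gene *Mcm2* changed by -0.93 (adjusted p = 0.0003) and *Mcm6* by -0.81 (adjusted p = 0.000289). Of the 18 cyclins, kinases and inhibitors of G1, 11 fell and 2 rose. *Cdkn1a*, the p21 inhibitor that p53 induces, was among those that fell: it read 11.09, 10.42, 10.30 and 10.63 at P10 and 9.62, 9.26, 9.17 and 8.90 at 2 months and changed by -1.37 (SE 0.18, adjusted p = 9.27e-05). The 2 that rose were *Cdkn2a* (1.01, adjusted p = 0.0118), which encodes p16 and p19Arf, and the pocket protein gene *Rbl2* (0.30, adjusted p = 0.0472), which was not called without replicate 4 at P10 (adjusted p = 0.0508). Leaving out any of the 8 arrays left 1 rise in the list. Of 17 genes of DNA methylation and chromatin, 9 fell, among them *Hmgn2* (-1.04), *Hells* (-0.80) and *Tet3* (-0.63), and none rose (1 without replicate 1 or 4 at P10 or replicate 1 at 2 months).

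Promoters of the mitotic genes are shown because so many of them fell together. Mitotic genes are known to carry CCAAT boxes, bound by NF-Y, and the cell cycle homology region TTTGAA or TTTAAA, read by the complexes that silence them in resting cells. Windows of 300 bases, 250 before and 50 after the annotated start, were taken from RefSeq on GRCm38.p6 for 25 of the 29 genes (27 windows), and both strands were searched. CCAAT was in 77.8% of these windows, against 37.4% of all 32851 promoter windows, and the cell cycle homology letters were in 88.9%, against 27.6%. At least 2 CCAAT matches were in 51.9% of the mitotic windows and in 11.7% of all. For the 26 windows of replication genes the shares were 57.7% for CCAAT and 26.9% for the cell cycle homology letters. A match is a run of letters, and no binding was measured.

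The window of *Mki67* (chr7:135716330-135716629, minus strand) holds 3 CCAAT matches and 2 TTTGAA, that of *Cdk1* (chr10:69352863-69353162, minus strand) likewise, and that of *Bub1* (chr2:127831810-127832109, minus strand) has 2 CCAAT and no cell cycle homology match. *Mvd* (chr8:122443373-122443672, minus strand), a gene of cholesterol synthesis described further on, is shown for comparison. Each is written 5′ to 3′ on the strand of the gene, with matches on either strand in capitals (ATTGG is CCAAT on the other strand).
Mki67: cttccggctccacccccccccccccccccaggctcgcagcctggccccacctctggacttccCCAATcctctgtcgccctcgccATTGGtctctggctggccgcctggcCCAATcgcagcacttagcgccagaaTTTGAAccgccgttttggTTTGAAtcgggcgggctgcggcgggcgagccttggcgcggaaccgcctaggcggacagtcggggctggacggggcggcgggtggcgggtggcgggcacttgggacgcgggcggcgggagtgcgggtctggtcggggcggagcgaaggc
Cdk1: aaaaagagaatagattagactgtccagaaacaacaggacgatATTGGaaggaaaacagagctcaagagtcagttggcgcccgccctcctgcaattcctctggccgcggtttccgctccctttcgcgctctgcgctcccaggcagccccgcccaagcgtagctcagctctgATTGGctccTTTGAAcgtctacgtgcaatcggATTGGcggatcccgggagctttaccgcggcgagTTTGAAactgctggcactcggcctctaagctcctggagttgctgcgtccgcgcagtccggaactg
Bub1: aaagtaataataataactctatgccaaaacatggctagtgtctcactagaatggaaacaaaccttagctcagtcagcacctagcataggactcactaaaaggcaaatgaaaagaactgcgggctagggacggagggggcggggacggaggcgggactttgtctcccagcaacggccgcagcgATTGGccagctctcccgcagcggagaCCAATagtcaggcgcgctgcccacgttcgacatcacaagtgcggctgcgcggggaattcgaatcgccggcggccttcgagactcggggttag
Mvd: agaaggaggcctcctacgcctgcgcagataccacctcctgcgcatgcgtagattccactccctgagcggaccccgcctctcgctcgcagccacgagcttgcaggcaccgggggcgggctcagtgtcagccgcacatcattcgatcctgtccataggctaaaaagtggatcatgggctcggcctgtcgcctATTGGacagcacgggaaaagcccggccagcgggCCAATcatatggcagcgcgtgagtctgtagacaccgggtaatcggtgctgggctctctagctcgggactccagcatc

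Imprinted genes, many of which control growth before and after birth, fell beyond the largest ones already named. Of 20 measured, 14 were lower and 3 higher, and the median was -1.29. *Mest*, an enzyme of the alpha/beta-hydrolase family expressed from the paternal allele, read 12.38, 12.12, 12.17 and 12.03 at P10 and 9.85, 9.39, 9.96 and 9.48 at 2 months and changed by -2.50 (SE 0.13, adjusted p = 1.55e-07). *Plagl1*, a zinc finger transcription factor of the imprinted network, changed by -2.47 (adjusted p = 2.32e-07). All P10 arrays of both genes were above all adult arrays. The 3 that rose were *Dcn* (0.55), *Kcnq1ot1* (0.55) and *Sgce* (0.42). Of 12 other growth regulators typical of fetal tissue, 4 fell, among them *Mybl2* (-0.70), *Mycn* (-0.51) and *Igf2bp3* (-0.47). Only 1 or 2 fell without replicate 2, 3 or 4 at P10 or without replicate 1 or 2 at 2 months (*Igf2bp3* without replicate 4 at P10, adjusted p = 0.101).

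Myelin genes did not move as a block. The major structural genes that could be measured were not called. *Mbp*, which compacts the cytoplasmic faces of myelin, read 13.14, 13.23, 13.31 and 13.01 at P10 and 13.003, 12.93, 13.13 and 12.87 at 2 months and differed by -0.19 (adjusted p = 0.237). *Pmp22*, a compact myelin protein of peripheral nerve, read 13.86, 13.82, 13.81 and 13.82 at P10 and 13.77, 13.64, 13.70 and 13.63 at 2 months and differed by -0.14 (adjusted p = 0.329). The arrays of the 2 ages overlapped for *Mbp* and did not for *Pmp22*. Other genes of the list were lower in the adult. *Mag*, an adhesion molecule of the inner membrane facing the axon, read 9.31, 9.36, 9.59 and 8.97 at P10 and 7.81, 7.27, 7.47 and 7.05 at 2 months and changed by -1.91 (SE 0.17, adjusted p = 3.97e-06). The lipid raft protein gene *Pllp* changed by -1.32 (adjusted p = 6.01e-06), the noncompact myelin enzyme gene *Cnp* by -1.19 (adjusted p = 6.32e-05), the tight junction gene *Cldn19* by -1.08 (adjusted p = 1.89e-05), *Ncmap* by -1.04 (adjusted p = 0.000112) and the fatty acid carrier gene *Pmp2* by -1.0 (adjusted p = 0.000182). In all, 11 of 18 measured myelin genes fell and 2 rose, with a median of -0.46. The risers were *Mpzl2*, an immunoglobulin-type adhesion molecule (6.64, 7.03, 6.89 and 6.54 at P10 and 8.42, 8.27, 8.39 and 7.74 at 2 months, a change of 1.43), and *Drp2*, a partner of periaxin (0.69, adjusted p = 0.000181). The fall of *Mal* (-0.35, adjusted p = 0.0432) was small, and its adjusted p passed 0.05 in some of the alternative analyses. Some other myelin genes were not analysed here.

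Genes that join the Schwann cell to the axon and to its basal lamina fell in part. Of 20 genes of the node, paranode and axon-glia adhesion 9 were lower and 2 higher (1 without replicate 1 at P10). *Dag1*, the dystroglycan precursor that binds laminin, read 12.11, 12.27, 12.23 and 12.27 at P10 and 11.19, 11.10, 11.03 and 10.65 at 2 months and changed by -1.22 (SE 0.12, adjusted p = 1.03e-05). *Gldn*, the gliomedin that clusters nodal channels, changed by -1.18 (adjusted p = 0.00116), the paranodal contactin gene *Cntn1* by -1.07 (adjusted p = 0.000102), the nectin-like gene *Cadm4* by -0.70 (adjusted p = 0.000337) and the juxtaparanodal potassium channel gene *Kcna1* by -0.70 (adjusted p = 0.000424). The 2 that rose were *Lgi4* (0.56, adjusted p = 0.00197), a secreted Schwann cell signal for myelination, and *Ank3* (0.46, adjusted p = 0.0175), the ankyrin G of the node. Of 16 axonal and neuronal transcripts, 4 rose (2 with the filter on dim genes) and 1 fell, the tubulin gene *Tubb3* (-0.35, adjusted p = 0.0429), which was not called when any of the 4 arrays at 2 months, or replicate 2 or 3 at P10, was left out. The nuclear marker *Rbfox3* stayed between 3.26 and 3.92 on all 8 arrays. *Stmn2*, a regulator of axonal microtubules, read 7.60, 7.84, 7.37 and 7.24 at P10 and 9.09, 8.79, 8.77 and 8.12 at 2 months and changed by 1.18 (SE 0.19, adjusted p = 0.000487), *Snap25*, a synaptic vesicle fusion protein, changed by 1.16 (adjusted p = 0.000838) and the neurofilament gene *Nefl* by 1.05 (adjusted p = 0.00763).

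Several transcription factors of the Schwann cell fell. Of 23 measured, 7 fell, none rose and 16 were not called, though 1 rose under 7 of the alternatives, among them leaving out replicate 4 at 2 months. *Egr2*, the master regulator of myelination, read 10.70, 11.06, 11.13 and 11.06 at P10 and 10.04, 9.48, 9.77 and 9.49 at 2 months and changed by -1.29 (SE 0.14, adjusted p = 2.2e-05). *Pou3f1*, which acts at the promyelinating stage, read 8.09, 7.91, 7.72 and 7.88 at P10 and 6.38, 6.82, 6.68 and 6.25 at 2 months and changed by -1.36 (SE 0.14, adjusted p = 2.14e-05). Both had no overlap between ages, as did *Sox4*, a factor of immature Schwann cells, which changed by -1.89 (SE 0.15, adjusted p = 2.01e-06). Smaller falls were those of *Sox10* (-0.66, adjusted p = 0.00137), *Nab2* (-0.81, adjusted p = 0.000927), *Id2* (-0.88, adjusted p = 0.0159) and *Sox9* (-0.62, adjusted p = 0.0263). *Jun* (-0.42, adjusted p = 0.107), *Sox2* (-0.13, adjusted p = 0.704), *Pou3f2* (-0.33, adjusted p = 0.119), *Pax3* (-0.15, adjusted p = 0.599) and *Tfap2a* (-0.35, adjusted p = 0.284) were not called.

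Among 19 genes of the immature, non-myelinating and repair Schwann cell, 6 fell and 4 rose. *Ngfr*, the p75 receptor of immature and Remak cells, read 9.78, 10.07, 10.28 and 9.57 at P10 and 8.61, 8.51, 8.69 and 8.77 at 2 months and changed by -1.28 (SE 0.14, adjusted p = 2.77e-05). *Dhh*, the ligand by which Schwann cells instruct the perineurium, read 9.61, 9.95, 10.04 and 9.83 at P10 and 8.72, 8.15, 8.32 and 7.83 at 2 months and changed by -1.60 (SE 0.16, adjusted p = 1.59e-05), and *Mcam* changed by -1.39 (adjusted p = 3.38e-06). The 4 that rose were *Scn7a*, *Cdh19*, *Cdh2* and *Atf3*, of which *Atf3* was not called without replicate 4 at P10 (adjusted p = 0.0887). *Scn7a*, a sodium channel-like gene, read 10.29, 10.65, 10.89 and 10.41 at P10 and 12.18, 12.19, 12.18 and 12.22 at 2 months and changed by 1.63 (SE 0.12, adjusted p = 1.68e-06), and the cadherin gene *Cdh19* rose by 1.73 (adjusted p = 4.76e-06). *S100b*, a Schwann cell marker, rose by 0.79 (adjusted p = 0.0017), while the neuregulin receptor gene *Erbb3* changed by -0.94 and its partner *Erbb2* by -0.85. The ligand gene *Nrg1* (0.39, adjusted p = 0.125) was not called. Of the 13 genes of this signalling list 2 fell (15.4%, against 12.6% of all genes) and none rose (1 without replicate 1 at 2 months).

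The lipid machinery of membrane growth was lower in the adult in part of its steps. Of 16 measured enzymes of cholesterol synthesis, 9 fell and 1 rose, with a median of -0.66. *Mvd*, which makes isopentenyl pyrophosphate, read 9.02, 8.94, 9.02 and 8.90 at P10 and 7.68, 7.56, 7.32 and 7.53 at 2 months and changed by -1.44 (SE 0.11, adjusted p = 1.43e-06). *Lss*, which closes the sterol ring, read 11.12, 11.05, 11.31 and 10.98 at P10 and 9.97, 9.63, 9.68 and 9.56 at 2 months and changed by -1.41 (SE 0.11, adjusted p = 2.49e-06). Neither overlapped between ages, and the changes of *Dhcr7* (-1.23), *Fdps* (-1.09) and *Mvk* (-0.97) were of the same kind. The only riser was *Sc5d* (0.54, adjusted p = 0.0171). *Srebf2*, which encodes the factor that switches on these enzymes, changed by -0.66 (adjusted p = 0.000502) and its escort gene *Scap* by -0.88 (adjusted p = 0.000108), while *Nr1h3*, the oxysterol receptor LXR alpha, rose by 0.98 (adjusted p = 7.44e-05). In the 16 promoter windows of the enzymes CCAAT was in 81.2% and the sterol response letters TCACNCCAC were in 1 window, while in the 10 windows of 7 enzymes that fell they were in 0, and 1.24% of all windows held them.

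Of 17 genes of galactolipid and sphingolipid metabolism, 7 fell and 2 rose. *Gal3st1*, which adds the sulfate of sulfatide, read 10.46, 10.35, 10.52 and 10.02 at P10 and 9.18, 8.28, 8.74 and 8.44 at 2 months and changed by -1.68 (SE 0.18, adjusted p = 1.88e-05). *Fa2h*, the fatty acid 2-hydroxylase of myelin lipid synthesis, read 11.18, 11.23, 11.03 and 11.11 at P10 and 10.12, 9.76, 9.72 and 9.38 at 2 months and changed by -1.39 (SE 0.14, adjusted p = 1.08e-05). No adult array of either gene reached the P10 range. In fatty acid synthesis 6 of 19 genes fell, among them *Fads2* (-1.18, adjusted p = 9.81e-06), a desaturase, and *Elovl6* (-0.92, adjusted p = 0.000749), an elongase, whereas *Me1*, the cytosolic malic enzyme that supplies NADPH, was the only one that rose (1.58, adjusted p = 9.86e-06), with 2 rises without replicate 1 at 2 months. Without replicate 2 of either age 3 of the 19 fell. Of 27 genes listed under phospholipid synthesis, 10 fell and 3 rose. Among the risers was *Etnppl*, given above, which breaks down phosphoethanolamine. *Chpt1*, which makes phosphatidylcholine, was higher by 1.42 (adjusted p = 1.95e-06), and the lysophospholipid acyltransferase gene *Lpcat3* changed by -0.90 (adjusted p = 9.06e-05).

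Collagen chains fell broadly. Of 24 chains measured, 17 were lower and none higher, and the median was -0.90. *Col1a1*, a chain of fibrillar collagen I, read 12.38, 12.69, 12.62 and 12.48 at P10 and 11.04, 11.10, 11.08 and 11.03 at 2 months and changed by -1.48 (SE 0.10, adjusted p = 6.94e-07). *Col5a1*, which nucleates fibrils, read 9.58, 9.71, 9.62 and 9.35 at P10 and 8.03, 7.92, 7.93 and 7.90 at 2 months, and its change was -1.62 (SE 0.10, adjusted p = 6.34e-07). Groups were narrow and apart for both, and *Col4a2* of the basal lamina (-1.29), *Col6a3* (-1.56) and *Col1a2* (-1.10) followed. Of 15 enzymes and chaperones that modify collagen, 8 fell, among them the lysyl hydroxylase gene *Plod1* (-1.21, adjusted p = 0.00012) and the prolyl hydroxylase gene *P3h1* (-0.78, adjusted p = 0.000231). *Lox*, whose product crosslinks collagen and elastin, was the only riser, with 10.09, 10.33, 10.07 and 9.88 at P10 and 11.53, 11.40, 11.37 and 10.99 at 2 months, a change of 1.23 (SE 0.13, adjusted p = 2.19e-05).

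Laminins and elastic fibres followed the collagens, while small proteoglycans did not. Of 18 laminins and laminin receptors 9 fell and 2 rose (1 without replicate 3 at 2 months): *Hspg2*, the perlecan gene, changed by -1.70 (adjusted p = 1.43e-06), the nidogen gene *Nid2* by -1.55 (adjusted p = 5.37e-07) and the laminin chain genes *Lamb1* and *Lamc1* by -1.35 and -0.89, while *Itgb4*, a late Schwann cell laminin receptor subunit, rose by 0.75 (adjusted p = 0.000786). Of 28 matrix glycoproteins 12 fell and 9 rose. The falls were in the elastic fibre and in matrix of growing tissue, with *Mfap2* at -2.17 (adjusted p = 3.39e-06), *Mfap4* at -1.79 (adjusted p = 3.65e-05), the tenascin gene *Tnc* at -1.50 (adjusted p = 1.68e-06) and the periostin gene *Postn* at -1.08 (adjusted p = 2.01e-05). The rises included the leucine-rich proteoglycan genes *Fmod* (1.05, adjusted p = 0.00368), *Ogn* (0.73, adjusted p = 0.000225), *Dcn* (0.55, adjusted p = 0.000964), *Prelp* (0.50, adjusted p = 0.0164) and *Lum* (0.38, adjusted p = 0.0329), of which *Lum* was not called without replicate 4 at P10 (adjusted p = 0.0778). Among matrix proteases *Mmp14*, which cuts collagen at the cell surface, changed by -1.15 (adjusted p = 2.84e-06), while *Mmp9* rose by 1.37 and *Mmp3* by 1.22. Of 14 fibroblast markers 5 rose and none fell, among them *Gsn* (1.66, adjusted p = 3.81e-06) and *Sfrp4* (1.13, adjusted p = 0.000121), and *Dpt* was not called (0.33, adjusted p = 0.501).

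Vessel genes fell, and part of the barrier genes rose. Of 19 endothelial genes, 16 were lower and none higher, with a median of -0.96. *Kdr*, the main receptor for VEGF, read 9.60, 9.85, 9.45 and 9.71 at P10 and 7.54, 7.60, 7.87 and 8.49 at 2 months and changed by -1.78 (SE 0.18, adjusted p = 1.36e-05). *Aplnr*, the apelin receptor of growing vessels, read 8.40, 8.65, 8.33 and 8.61 at P10 and 6.67, 6.33, 6.33 and 6.38 at 2 months and changed by -2.07 (SE 0.13, adjusted p = 3.69e-07). The pan-endothelial markers *Cdh5* (-0.85, adjusted p = 0.000109) and *Pecam1* (-1.01, adjusted p = 0.000401) fell less, and *Tek* (-0.50, adjusted p = 0.082) was not called. In whole nerve, fewer cells of a type and less RNA per cell cannot be told apart. The Notch pathway, which also selects sprouting cells, had 11 of 16 members lower and none higher: the endothelial ligand gene *Dll4* changed by -1.55 (SE 0.13, adjusted p = 3.65e-06), the target genes *Nrarp* by -1.34 and *Hey1* by -1.08. In the list of smooth muscle and pericyte genes 9 of 15 fell, among them *Actg2* (-2.10, adjusted p = 0.000211), *Abcc9* (-1.25, adjusted p = 0.000979) and *Notch3* (-1.16, adjusted p = 0.000266), and *Tagln* alone rose (1.03, adjusted p = 0.000318). The defining marker *Acta2* was not called (-0.43, adjusted p = 0.228), and its ages overlapped.

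Of 14 genes of the barrier between blood and nerve, 6 rose and 3 fell. *Abcb1a*, the P-glycoprotein efflux pump of barrier vessels, read 7.90, 8.42, 8.65 and 8.10 at P10 and 10.31, 10.34, 10.38 and 9.97 at 2 months and changed by 1.98 (SE 0.16, adjusted p = 2.01e-06). *Abcg2*, a second efflux pump, read 8.39, 8.46, 8.43 and 8.25 at P10 and 9.38, 9.66, 9.55 and 9.45 at 2 months and changed by 1.13 (SE 0.10, adjusted p = 5.13e-06). Both were higher on every adult array. The perineurial tight junction gene *Cldn1* rose by 1.02 (adjusted p = 0.000124), the junction scaffold gene *Tjp1* by 0.72 (adjusted p = 0.000223) and the glucose transporter gene *Slc2a1* by 0.79 (adjusted p = 0.0128). Among those that fell was *Mfsd2a* (-1.04, adjusted p = 0.0013), a lipid transporter of brain endothelium. In the hedgehog pathway 4 of 11 genes fell, including the receptor antagonist gene *Hhip* (-1.41, adjusted p = 0.00154) and *Smo* (-0.78, adjusted p = 0.000234), next to the ligand gene *Dhh* given above, and 2 rose. These were the receptor gene *Ptch1* (0.33, adjusted p = 0.0237) and the target gene *Gli1* (0.38, adjusted p = 0.0398). Only 1 rose without replicate 1, 3 or 4 at P10 or replicate 1 at 2 months (*Gli1* without replicate 4 at P10, adjusted p = 0.0525), and none without replicate 2 at P10 or replicate 2 or 3 at 2 months.

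Genes of macrophages, complement and the interferon response rose in the adult nerve. Of 17 macrophage genes, 12 rose and 1 fell, against 12.1% of all genes higher, and the median was 0.57. *Lyz2*, the lysozyme of myeloid cells, read 8.27, 8.27, 8.32 and 7.73 at P10 and 9.77, 10.48, 10.30 and 9.99 at 2 months and changed by 1.99 (SE 0.17, adjusted p = 3.38e-06). *Ccr2*, the receptor that recruits monocytes, read 5.36, 5.14, 6.16 and 4.52 at P10 and 7.58, 7.77, 8.51 and 8.17 at 2 months and changed by 2.71 (SE 0.29, adjusted p = 2.2e-05). The defining marker *Csf1r* was not called: it read 9.38, 9.48, 9.35 and 8.94 at P10 and 8.97, 9.43, 9.50 and 9.46 at 2 months, and its ages overlapped. *Adgre1* rose by 0.46 (adjusted p = 0.0489) and was not called without replicate 4 at P10 (adjusted p = 0.122), which had the lowest value of the P10 arrays for both genes. The microglial and nerve macrophage gene *Cx3cr1* was the only one that fell (-0.75, adjusted p = 0.00464). Of 12 genes of resident-type macrophages 9 rose, among them the scavenger receptor gene *Cd163* (1.40, adjusted p = 0.000161), the mannose receptor gene *Mrc1* (0.90, adjusted p = 0.00061), *F13a1* (1.08, adjusted p = 0.000461), *Clec10a* (0.95, adjusted p = 0.000381) and *Gas6* (1.23, adjusted p = 2.95e-05), and none fell.

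Of the 60 lists, complement had the largest share of rises. Of 15 genes 14 were higher, with a median of 0.80, and *C5ar1* alone was not called (0.26, adjusted p = 0.315). *C4b*, a component of the classical and lectin pathways, read 7.16, 7.67, 7.53 and 7.40 at P10 and 9.14, 9.93, 9.51 and 9.76 at 2 months and changed by 2.15 (SE 0.16, adjusted p = 1.68e-06). *Cd55*, which protects cells from complement, read 8.60, 8.06, 8.53 and 8.27 at P10 and 9.73, 9.58, 9.78 and 9.51 at 2 months and changed by 1.28 (SE 0.13, adjusted p = 1.27e-05), and *Cfb* of the alternative pathway by 0.97 (adjusted p = 0.000228). Genes of antigen presentation rose in part. In MHC class II 4 of 8 rose and 1 fell: *H2-Aa* read 6.81, 7.05, 7.05 and 7.07 at P10 and 9.20, 9.91, 9.44 and 9.37 at 2 months, a change of 2.49 (SE 0.14, adjusted p = 2.32e-07), *H2-Eb1* rose by 1.80 (adjusted p = 1.43e-06) and the master regulator gene *Ciita* by 0.81 (adjusted p = 0.00425), while *H2-DMa*, which loads peptide, fell (-0.56, adjusted p = 0.00603). In MHC class I 7 of 13 genes rose, among them *H2-K1* (1.12, adjusted p = 0.000115), *H2-D1* (1.18, adjusted p = 0.000346) and *B2m* (0.77, adjusted p = 0.00136), and none fell. The H2 genes are polymorphic and similar in sequence, so probes may read several of them.

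Of 21 interferon-response genes, 16 rose and none fell (1 without replicate 2 at P10), with a median of 0.85. *Ifit3* read 6.82, 7.01, 7.05 and 8.14 at P10 and 9.25, 9.93, 9.38 and 9.38 at 2 months and changed by 2.23 (SE 0.24, adjusted p = 2.65e-05). *Gbp2*, a guanylate-binding protein of cell-autonomous defence, read 7.07, 6.38, 6.67 and 6.13 at P10 and 8.23, 8.33, 8.48 and 8.39 at 2 months, a change of 1.79 (SE 0.17, adjusted p = 9.16e-06). Replicate 4 was the highest P10 array for *Ifit3* and the lowest for *Gbp2*, and no array overlapped in either. Without replicate 4, 18 of the 21 were higher. Mast cells had 6 of 12 markers higher, with the carboxypeptidase gene *Cpa3* at 1.39 (adjusted p = 4.63e-05), the chymase gene *Mcpt4* at 1.21 (adjusted p = 0.000684) and the receptor gene *Mrgprb1* at 2.11 (adjusted p = 4.63e-05), while *Cma1* was not called (0.09, adjusted p = 0.698). Few lymphocyte markers were called. Of 16 T and NK cell genes 1 rose, *Ncr1* (0.51, adjusted p = 0.0151), and *Cd3e* (0.23, adjusted p = 0.445) and *Cd3g* (-0.05, adjusted p = 0.863) were not called. Without replicate 4 at P10 or replicate 1 at 2 months 2 of the list rose, and none without replicate 2 at 2 months. None of 11 B and plasma cell genes was called (1 rose without replicate 3 or 4 at 2 months), though *Jchain* read 5.27, 7.33, 3.95 and 4.32 at 2 months against 3.53 to 4.42 at P10. Of 13 neutrophil genes 2 rose (15.4%, against 12.1% of all genes), *Csf3r* (0.65, adjusted p = 0.0118) and *Lcn2* (0.71, adjusted p = 0.00307). *S100a9* was not called (0.19, adjusted p = 0.662).

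**Figure D3:**
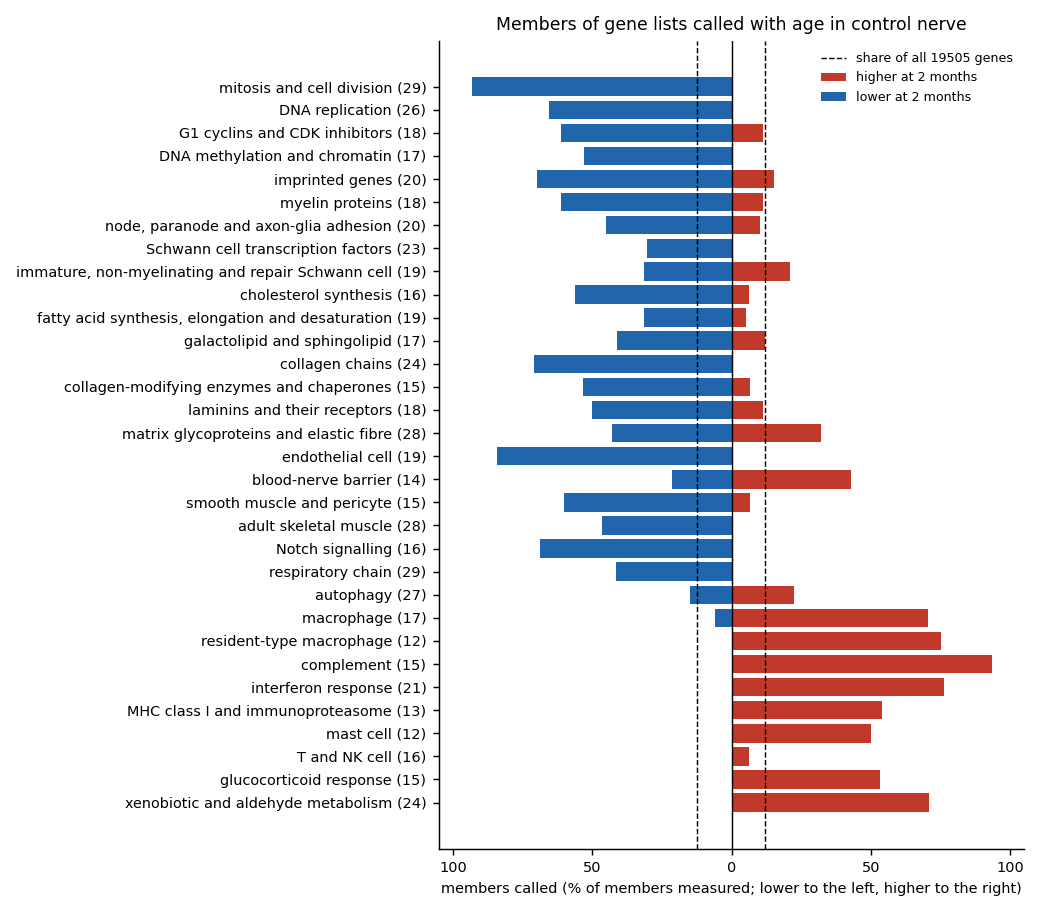
Share of the measured members of 32 gene lists (number of members in brackets) that were called higher (red, to the right) or lower (blue, to the left) at 2 months in control nerves. Dashed lines mark the shares of all 19505 genes, 12.1% higher and 12.6% lower; mitosis, endothelial cell and collagen bars lie to the left and complement, interferon and macrophage bars to the right.

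Metabolism of foreign and reactive molecules rose broadly. Of 24 genes of xenobiotic and aldehyde metabolism, 17 were higher and none lower, with a median of 0.79. Besides *Aldh1a1* and *Cyp2e1*, *Gpx3*, the secreted glutathione peroxidase, read 7.42, 7.75, 7.80 and 7.89 at P10 and 9.42, 9.66, 10.22 and 10.17 at 2 months and changed by 2.15 (SE 0.17, adjusted p = 2.4e-06). The glutathione transferase gene *Gstm1* read 8.64, 8.83, 8.66 and 8.51 at P10 and 9.93, 10.09, 9.87 and 9.97 at 2 months, a change of 1.30 (SE 0.10, adjusted p = 1.93e-06), and the aldehyde oxidase gene *Aox3* rose by 1.21 (adjusted p = 0.000151). Each of these was higher on all adult arrays than on any at P10. Targets of glucocorticoid receptors rose in part: 8 of 15 were higher and none lower (1 without replicate 2 at 2 months). *Hsd11b1*, which regenerates active corticosterone, read 5.58, 5.48, 5.76 and 5.42 at P10 and 7.23, 7.0, 6.57 and 7.06 at 2 months and changed by 1.41 (SE 0.16, adjusted p = 3.19e-05), and the receptor targets *Fkbp5* and *Zbtb16* changed by 0.91 (adjusted p = 0.00181) and 0.98 (adjusted p = 0.00133). The receptor gene *Nr3c1* was not called (0.19, adjusted p = 0.265).

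Of 18 clock genes 5 rose and 3 fell (5 fell without replicate 2 at 2 months). The activator genes *Arntl* (0.79, adjusted p = 0.00162) and *Clock* (0.84, adjusted p = 0.000605) and the repressor gene *Nr1d1* (1.22, adjusted p = 0.0021) rose, and *Ciart* (-0.78, adjusted p = 0.00154) and *Cry2* (-0.56, adjusted p = 0.00501) fell. The time of killing is given only as the morning. Of 10 genes of the thyroid hormone list 2 rose, among them the receptor gene *Thrb* (0.77, adjusted p = 0.000606), and 2 fell. Only 1 fell when any array but replicate 3 at P10 was left out. Of 14 genes of the axis of growth hormone and IGF 1 rose, the binding protein gene *Igfbp6* (0.92, adjusted p = 0.000533). In the same axis 2 fell, among them *Socs2*, a growth hormone target (-0.88, adjusted p = 0.00343). Without replicate 1 at 2 months 2 of the axis rose, and without replicate 1, 3 or 4 at P10 or replicate 2 at 2 months 1 fell. The share called was 40.0% in the thyroid list and 21.4% in the axis, against 24.7% of all genes. Among 26 genes of TGF-beta and BMP signalling 2 rose, the BMP inhibitor gene *Chrdl1* (2.17, adjusted p = 3.63e-06) and the ligand gene *Bmp5* (1.07, adjusted p = 0.000368), and 5 fell, among them *Tgfb2* (-0.95, adjusted p = 0.00304) and *Tgfb1* (-0.45, adjusted p = 0.0302), with 3 falls without replicate 1 at 2 months. That list had 26.9% of its genes called, against 24.7% of all genes. In Wnt signalling the antagonist gene *Sfrp5* rose (1.30, adjusted p = 0.000439) and the receptor gene *Lgr5* fell (-0.87, adjusted p = 0.000975), among 23 genes with 2 rises and 2 falls (17.4% called). Without replicate 1 at 2 months 4 rose and 1 fell, and 1 fell without replicate 1 or 3 at P10 or replicate 2 or 4 at 2 months.

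*Becn1*, the gene removed in the cKO animals, was not called in control nerves: it read 8.62, 8.57, 8.52 and 8.72 at P10 and 8.53, 8.44, 8.46 and 8.36 at 2 months, a difference of -0.16 (SE 0.10, adjusted p = 0.279). Of 27 autophagy genes, 6 rose and 4 fell, and the median was -0.05. The share called was 37.0%, against 24.7% of all genes (12.1% higher and 12.6% lower). *Gabarapl1*, an autophagosome protein of the LC3 family, read 9.04, 8.94, 8.88 and 8.84 at P10 and 9.62, 9.46, 9.72 and 9.45 at 2 months and rose by 0.64 (adjusted p = 0.000419). *Wipi1*, which binds phosphoinositides on the forming autophagosome, changed by -0.74 (adjusted p = 0.000196) and *Atg9a*, the scramblase that seeds it, by -0.71 (adjusted p = 0.00184). Without replicate 4 at P10 or without replicate 2 at 2 months 3 of the list rose, and 2 fell without replicate 1 at P10 or without replicate 3 or 4 at 2 months. Of 25 lysosomal genes 2 rose and 6 fell (32.0% called), and 1 rose without replicate 3 or 4 at P10 or replicate 2, 3 or 4 at 2 months. In the phosphoinositide and mTOR list, 5 of 28 rose and 9 fell: the PI3K regulatory gene *Pik3r1* changed by 1.13 (adjusted p = 5.02e-06), *Akt1* by -0.75 (adjusted p = 0.000179) and *Mtmr2*, a phosphatase whose human gene is mutated in a demyelinating neuropathy, by -0.60 (adjusted p = 0.000927). The rises numbered 3 without replicate 2 or 3 of either age.

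Muscle transcripts varied widely between single arrays. Of 28 adult skeletal muscle genes 13 fell and none rose, with a median of -1.86. *Mylpf*, the fast myosin light chain, read 9.94, 6.82, 9.36 and 11.92 at P10 and 4.10, 6.37, 5.26 and 3.90 at 2 months and changed by -4.60 (SE 0.81, adjusted p = 0.00101). Without replicate 4 the change was -3.80 (adjusted p = 0.000902), and *Acta1* changed by -2.91 instead of -3.65. The lowest P10 array of both genes was replicate 2, close above the highest adult arrays. *Ckm*, the muscle creatine kinase, read 9.07, 8.08, 8.58 and 11.27 at P10 and 7.97, 8.47, 8.14 and 8.15 at 2 months and was not called (-1.07, adjusted p = 0.139): replicate 4 alone stood apart. Of the 28, 16 were called lower without replicate 4, 7 without replicate 1 and 24 without replicate 2 of P10, and without replicate 4 the median was -0.90. The mean of the list was 8.39, 6.51, 7.82 and 10.23 at P10 and 5.86, 6.73, 6.48 and 5.83 at 2 months, so muscle signal varied between arrays of each age, and the part of muscle attached to the nerve in these changes was not tested. Respiratory chain genes, which muscle expresses highly, were also highest on replicate 4. Of 29, 12 fell, among them *Uqcrc1* (-1.05, adjusted p = 0.00103) and *Atp5a1* (-0.72, adjusted p = 0.00137), but 7 without replicate 4 or without replicate 1 at P10 and 6 without replicate 3 at 2 months. Replicate 4 was the array whose mean over the list was highest, 9.13 against 8.43 on the lowest P10 array.

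**Figure D4:**
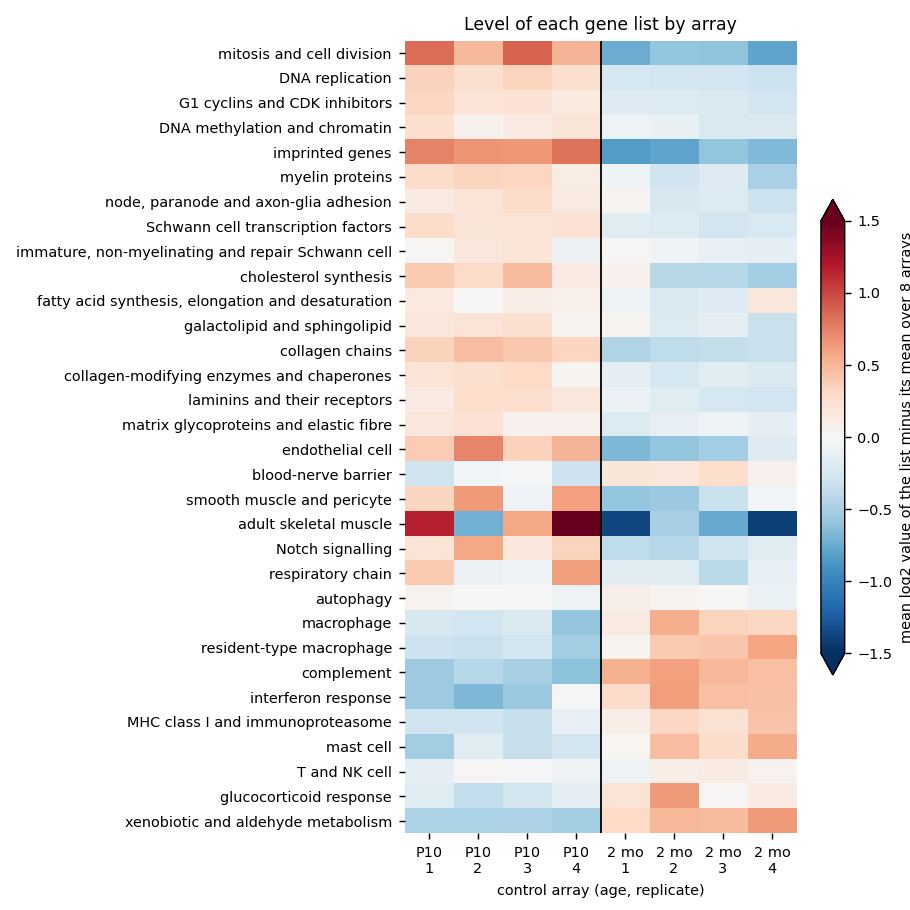
Mean log2 RMA value of each of 32 gene lists on each of the 8 control arrays, minus the mean of that list over the 8 arrays (colour scale in log2 units, red high and blue low). Columns are replicates 1 to 4 at P10 and 1 to 4 at 2 months; mitosis and imprinted genes separate the ages evenly, whereas adult skeletal muscle is uneven, with a mean of 10.23 on replicate 4 at P10.

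Other cells that could be carried along were read in the same way. For fat, *Adipoq*, the adiponectin gene, was not called (0.86, adjusted p = 0.0916) and read 9.51, 9.10, 8.69 and 8.98 at P10 and 8.85, 9.46, 10.53 and 10.87 at 2 months. The *Mup* genes among the largest rises had the same order of adult arrays. Of 15 adipocyte genes 2 rose and 2 fell (26.7% called, against 24.7% of all genes), with a median of -0.17. *Cidec* (1.25, adjusted p = 0.00524) and *Retn* (2.11, adjusted p = 0.000128) rose, and *Gpd1* (-1.31, adjusted p = 0.00137) and *Ucp1* fell. The rises numbered 4 without replicate 1 and the falls 4 without replicate 4 at 2 months. Of 10 pigment-cell genes 4 rose and none fell (40.0% called, against 24.7% of all genes). *Gpnmb*, given above and also a macrophage gene, was higher on every adult array than on any P10 array. *Tyrp1*, a melanosome enzyme, was high on some adult arrays only and read 4.17, 4.97, 4.77 and 6.16 at P10 and 10.19, 11.66, 4.57 and 8.82 at 2 months. Its log2 change was 3.79 (SE 1.07, adjusted p = 0.0193), but replicate 3 at 2 months lay within the P10 range, which keeps it out of the largest rises. *Trpm1* read 8.38, 9.30, 5.90 and 7.16 at 2 months, in the same order of arrays, and changed by 2.63 (adjusted p = 0.0035), while the melanocyte genes *Pmel* (0.07, adjusted p = 0.923), *Dct* (0.28, adjusted p = 0.369) and *Tyr* (-0.19, adjusted p = 0.357) were not called. The adult arrays of *Gpnmb* (8.63, 9.13, 7.78 and 8.14) and *C7* (10.37, 10.82, 7.08 and 8.52) had that order too. The part of pigment cells in the rises of *Gpnmb* and *C7* was not tested. Of tendon and cartilage genes *Tnmd* alone, highest on replicate 4 at P10, fell (-0.90, adjusted p = 0.00859), and no keratinocyte gene was called. The red cell gene *Alas2* was not called (-0.12, adjusted p = 0.792).

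The same interval was measured in cKO nerves, on 8 other arrays. There 3137 genes rose (16.1%) and 2698 fell (13.8%) in a fit of all 16 arrays. In that same fit 2696 genes rose and 2961 fell in control nerves. The overlaps that follow set the cKO calls of that fit against the control calls of the fit of control arrays alone. Of the genes that rose in control nerves 54.6% also rose in cKO nerves, which is 41.2% of the cKO rises, and of those that fell 56.9% also fell, or 51.9% of the cKO falls. The difference of the 2 age changes, tested as an interaction, was called upward in cKO nerves for 1499 genes (7.69%) and downward for 895 (4.59%), a split that became 1193 upward and 1148 downward after further quantile normalization. *Gpm6a* rose by 2.80 in control nerves and differed by -0.35 in cKO nerves (interaction -3.15, adjusted p = 2.49e-10), and *Etnppl* by 2.82 against -0.19 (interaction -3.0, adjusted p = 1.68e-05). In cKO nerves the change of *Etnppl* was not called (adjusted p = 0.642), and that of *Gpm6a* was (adjusted p = 0.0321). For the fall of *Cthrc1* (-3.32 against -1.16) and of *Cdh6* (-2.88 against -1.43) the cKO change was smaller, with interactions of 2.16 (adjusted p = 2.47e-06) and 1.45 (adjusted p = 5.42e-05). *Gpm6a*, *Etnppl*, *Cthrc1* and *Cdh6* had been picked for their large control change, which favours a smaller change in cKO nerves.

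Groups of genes differed in how far the 2 genotypes ran alike. The counts below stand beside 7.69% of all genes with an upward interaction and 4.59% with a downward one. In cholesterol synthesis the interaction was upward for 13 of 16 enzymes: *Dhcr7* changed by -1.23 in control and 0.11 in cKO nerves (interaction adjusted p = 2.15e-05), and *Lss* by -1.41 and 0.16 (adjusted p = 2.06e-06). Among the mitotic genes it was upward for 8 of 29 and downward for 1, and *Mki67* changed by -2.52 and -1.52. For collagens it was called for 3 of 24, all downward, and the kinase gene *Nrk* changed by -3.33 and -3.25. Myelin genes went both ways: *Mbp* changed by -0.19 and -1.35 (interaction adjusted p = 1.58e-05), *Egr2* by -1.29 and -2.34 (adjusted p = 0.00366) and *Mag* by -1.91 and -1.03 (adjusted p = 0.00809). For *Becn1* the changes were -0.16 and -0.07. In the macrophage list 16 of 17 interactions were upward, whereas in the resident-type list 6 of 12 were downward and 1 upward, with *Cd163* at 1.40 in control and -0.13 in cKO nerves (adjusted p = 0.00395).

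**Figure D5:**
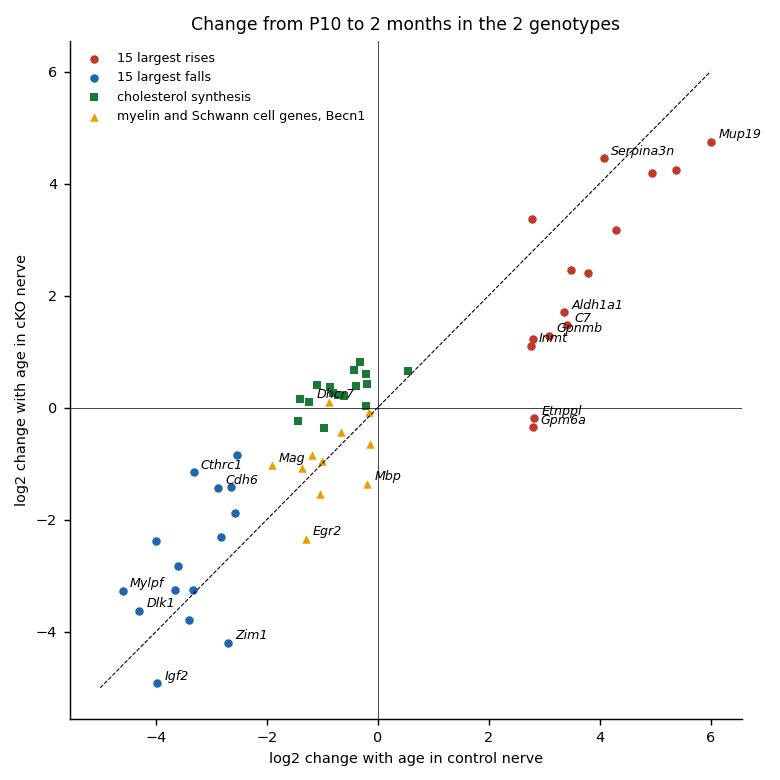
Log2 change from P10 to 2 months in control nerves (horizontal axis) and in cKO nerves (vertical axis), 4 arrays per age and genotype. Points are the 15 largest rises (red) and falls (blue) of control nerves, 16 enzymes of cholesterol synthesis (green squares) and 11 myelin and Schwann cell genes with Becn1 (yellow triangles); the dashed line marks equal change, and Gpm6a and Etnppl lie far below it.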

How the data were processed

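RNA of whole sciatic nerves was extracted with TRIzol and hybridized to mouse Clariom S arrays, 1 array per sample. The authors normalized the scans by the robust multiarray average in the manufacturer's console software and deposited 1 table of log2 values for 22206 transcript clusters on 16 arrays, and every value column was used (0 left out). The scans and detection calls were not used here, so low levels could not be set against background, and the precision is limited by the number of arrays. Platform annotation gave 1 symbol to 19572 clusters and none to 2634. RefSeq promoter windows are on GRCm38.p6.

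The age difference of the 8 control arrays was fitted with limma 3.58.1 (lmFit and eBayes with an intensity trend) in R 4.3.3, and p-values were adjusted by Benjamini-Hochberg over all 19505 genes and called under 0.05. The difference between genotypes was an interaction in a fit of the 16 arrays. Both steps were tested on simulated data.

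Gene lists (60 lists with 1047 of 1132 entries measured) and the members were chosen with earlier results of these data known, and the lists' other 85 entries had no cluster under their symbol. Genes were named by rule: the 15 largest changes in each direction, the 5 with the smallest p of each list, defining cell type markers and genes the study followed. Others, such as the members of small counts, were chosen after their values were seen.

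Alternatives were array weights, no intensity trend, a filter on dim genes (log2 of 6 on at least 4 arrays), median centring, quantile normalization, all 16 arrays, every cluster, the 5000 most variable clusters, a log2 change of at least 1, the replicate number as a block, each control array left out and, chosen after seeing the data, the Y-linked level as a covariate.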

Additional observations from a re-analysis of the deposited data

Results flagged for a closer look

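Single arrays stood apart from the other 3 of their age, by a gap past Dixon's critical value, in 29 of 508 groups examined (254 genes at 2 ages). Chance gives about 1 in 20 groups. Replicate 4 at P10, the array with the highest muscle signal, held 12 of them. Its values were low for *Cdkn2a* (4.30, others 5.39 to 5.58), *Chrdl1* (8.47, others 9.38 to 9.41), *Cnp* (11.51, others 12.0 to 12.02), *Cyp2e1* (5.36, others 5.79 to 5.84), *Dcn* (12.34, others 12.56 to 12.61) and *Lyz2* (7.73, others 8.27 to 8.32). They were high for *Mir675* (12.57, others 11.97 to 12.06), *Mup2* (5.94, others 5.20 to 5.32), *Mup22* (6.16, others 5.49 to 5.55), *Nr1d1* (8.10, others 7.18 to 7.28), *Srebf2* (11.37, others 10.97 to 11.03) and *Tnmd* (7.16, others 6.15 to 6.25). Replicate 1 at P10 was low for *Egr2* (10.70, others 11.06 to 11.13), *H2-Aa* (6.81, others 7.05 to 7.07) and *S100a9* (5.03, others 5.56 to 5.67) and high for *H2bc1* (6.25, others 5.88 to 5.94). Replicate 2 at P10 was high for *Cpxm2* (6.88, others 6.09 to 6.21), *Mrgprb1* (5.0, others 4.32 to 4.42) and *Pecam1* (9.62, others 9.37 to 9.39). Replicate 1 at 2 months was low for *Csf1r* (8.97, others 9.43 to 9.50) and *H2-K1* (9.60, others 10.14 to 10.25) and high for *Aplnr* (6.67, others 6.33 to 6.38). Replicate 2 at 2 months was low for *Socs2* (5.70, others 6.55 to 6.62) and high for *Aox3* (7.66, others 6.99 to 7.09) and *Cx3cr1* (7.33, others 6.58 to 6.61). Replicate 4 at 2 months was low for *Cpxm2* (8.54, others 9.21 to 9.33) and *Hmgn2* (8.16, others 8.86 to 8.96) and high for *Me1* (10.50, others 9.75 to 9.80) and *Nr1h3* (7.99, others 7.78 to 7.81). The part of muscle signal in these values was not tested.

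The age change in cKO nerves differed from that in control nerves, by the interaction in limma, for 22 of 57 genes examined (the largest changes, genes the study followed and 3 further genes given in both genotypes). Over all genes it was called upward for 7.69% and downward for 4.59%. The largest changes were picked on the control values that the interaction subtracts. That choice favours smaller changes in cKO nerves among them, so the 22 of 57 cannot be set against the shares of all genes. Among the genes that rose most in control nerves the difference was downward for *Aldh1a1* (-1.66, adjusted p = 0.00235), *Gpnmb* (-1.81, adjusted p = 0.000304), *Etnppl* (-3.0, adjusted p = 1.68e-05), *Cxcl13* (-1.58, adjusted p = 0.00449), *Gpm6a* (-3.15, adjusted p = 2.49e-10) and *Inmt* (-1.66, adjusted p = 0.0013). Among those that fell most it was upward for *Dlk1* (0.68, adjusted p = 0.0275), *Cthrc1* (2.16, adjusted p = 2.47e-06) and *Cdh6* (1.45, adjusted p = 5.42e-05) and downward, for a deeper fall in cKO nerves, for *Igf2* (-0.95, adjusted p = 0.0353) and *Zim1* (-1.50, adjusted p = 0.00037). Of Schwann cell genes it was downward for *Mbp* (-1.17, adjusted p = 1.58e-05), *Pmp22* (-0.51, adjusted p = 0.027) and *Egr2* (-1.04, adjusted p = 0.00366) and upward for *Mag* (0.88, adjusted p = 0.00809), *Id2* (0.98, adjusted p = 0.0452) and *Nrg1* (0.71, adjusted p = 0.0398). It was upward for *Tgfb1* (0.75, adjusted p = 0.00486), *Mki67* (0.99, adjusted p = 0.0151), *Dhcr7* (1.34, adjusted p = 2.15e-05) and *Lss* (1.57, adjusted p = 2.06e-06) and downward for the macrophage gene *Cd163* (-1.53, adjusted p = 0.00395).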

How the results depend on the processing

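Among the 360 genes followed, no called change reversed direction under the 18 alternatives that were run. The direction of the other called genes was not checked. In some alternatives 9 uncalled genes that are named changed sign (*Alas2*, *Cd3g*, *Csf1r*, *Eif2s3y*, *Kdm5d*, *Pmel*, *S100a9*, *Sox2* and *Uty*). The counts of genes that rose (2363) and fell (2459) stayed within 1.5 times of themselves except with the 5000 most variable clusters, where fewer genes were tested and 1464 fell, and with a log2 change of at least 1, where 447 rose and 442 fell. Leaving out single control arrays gave 1893 to 2212 rises and 1975 to 2419 falls. Array centring gave 2633 and 2135, quantile normalization 2615 and 2325, array weights 2517 and 2723, and the Y-linked covariate, added after seeing the data, 2326 and 2469. The upward and downward differences between genotypes (1499 and 895) ranged from 1186 to 1659 and from 725 to 896 without single control arrays, and cKO arrays were not left out.

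With the replicate number as a block 2470 genes rose and 2626 fell, and the differences numbered 1460 and 808. The deviations of same-numbered arrays of the 2 ages were not all correlated above 0.1 (0.1055, -0.1088, 0.0826 and 0.1525 for numbers 1 to 4), so the numbers were not treated as pairs.

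Of 360 genes followed, 308 were called and 273 kept the call in every alternative in which they were tested. Among those named, the highest adjusted p from limma was 0.136 for *Rbl2*, 0.155 for *Adgre1*, 0.122 for *Mal*, 0.125 for *Gli1*, 0.0849 for *Ptch1*, 0.139 for *Tubb3*, 0.121 for *Igf2bp3*, 0.0991 for *Lum*, 0.0997 for *Atf3*, 0.0971 for *Tgfb1*, 0.0845 for *Sox9*, 0.0632 for *Tyrp1*, 0.0618 for *Mycn*, 0.0615 for *Prelp*, 0.0582 for *Myom2*, 0.0562 for *Id2* and for *Ank3*, 0.0538 for *Sgce*, 0.0749 for *Mup5* and 0.0501 for *Ncr1*. Replicate 4 at P10, when left out, ended 10 of the 308 calls, and the other arrays ended 15 to 23 each. The 15 largest changes in each direction had been picked as called without replicate 4 at P10. They could not lose the call there, so its count cannot be set against those of the other arrays. Many of the genes followed were picked for a small p, so these counts do not describe all called genes.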

Other observations

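The following groups were formed by gene name after their values had been seen, and are given as counts. Of 49 core histone genes 45 fell and none rose, with a median log2 change of -1.54 against -0.015 over all genes. *H2ac10* read 11.14, 10.95, 11.20 and 10.60 at P10 and 8.71, 8.91, 9.10 and 8.69 at 2 months and changed by -2.12 (SE 0.14, adjusted p = 6.94e-07), and *H3c8* changed by -2.04 (adjusted p = 6.36e-07). In cKO nerves the same genes changed by -0.89 and -1.18 (interaction adjusted p = 0.000295 and 0.0139), and the interaction was upward for 17 of the 49. The 4 that were not called are *H2bc1*, *H3c1*, *H2bc4* and *H2bc21*. Histone genes are near-identical copies, so single members are uncertain. Of 12 guanylate-binding proteins and immunity-related GTPases, which act against intracellular microbes and are induced by interferon, 11 rose: *Tgtp2* read 5.20, 3.82, 4.20 and 5.38 at P10 and 7.02, 6.97, 7.84 and 7.28 at 2 months and changed by 2.63 (SE 0.31, adjusted p = 5.05e-05), and *Gbp7*, with narrow groups, by 0.94 (SE 0.10, adjusted p = 1.46e-05). Of 13 small leucine-rich proteoglycans 7 rose and 1 fell, with a median of 0.38. Of 9 major urinary protein genes 5 rose, *Mup5* (0.60, adjusted p = 0.0237) besides the 4 of the largest rises, and the difference between genotypes was not called for any.

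In the mitotic promoter windows, the 49 CCAAT matches had their median first base at position -62 from the start site and 81.6% lay in the 150 bases upstream, while the 37 matches of the cell cycle homology letters had theirs at -5 and 67.6% lay within 50 bases of it. Arrays of 1 age also differed among themselves. *Eif2s3y* read 9.68, 9.18, 3.10 and 3.46 at P10 and 9.39, 9.29, 3.12 and 3.85 at 2 months, and at 2 months *Mup19* was highest on replicates 3 and 4 and *C7* on replicates 1 and 2.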
